A study of Mus musculus with 14 samples.

Results

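Immediate early genes were measured in microglia, the resident macrophages of the central nervous system, sorted from the dorsal horn of the lumbar spinal cord of arthritic and control mice. The members were fixed by name as Fos, Fosb, Jun, Junb, Jund, Atf3, Egr1, Ier2, Dusp1 and Zfp36, of which 9 of 10 were in the deposited values, among 14329 genes in all, and Fosb was not analysed here. All 9 passed the filter on low counts, at least 10 reads in at least 7 of 14 libraries, with Fos reaching 10 reads in 9 libraries, Egr1 in 12 and the other 7 genes in 14. The comparisons ask how serum-transfer arthritis changes dorsal horn microglia, and whether it does so differently in TASTPM mice, which model Alzheimer's disease. All mice were 6 months old and of a C57BL/6 background, male and female, and tissue was taken at day 5 after serum transfer (ST). TASTPM mice are heterozygous for human transgenes that carry the Swedish mutation of the amyloid precursor protein and a mutant presenilin 1, both under the Thy-1 promoter, which is active in neurons. WT mice came from backcrosses of the same colony and carried no human transgene. K/BxN serum comes from arthritic K/BxN mice and passes on arthritis through its autoantibodies, while control serum was pooled from KRN/C57 mice. Each library was made from 2000 CD45low CD11b+ CX3CR1+ cells, and there were 4 libraries each of WT K/BxN ST and TASTPM K/BxN ST and 3 each of WT Control ST and TASTPM Control ST.

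Immediate early genes are transcribed within minutes of a stimulus without new protein synthesis, when MAP kinases activate factors such as SRF with its ternary complex partners and CREB that already sit on their promoters. Fos and Jun family proteins then pair through leucine zippers to form AP-1, while Dusp1 dephosphorylates the MAP kinases and Zfp36, also called tristetraprolin, speeds the decay of AU-rich messenger RNAs. In microglia the same genes respond to inflammatory and purinergic signals and also to the handling of tissue, which is why they are often read as a sign of cell dissociation. In the methods of the study, tissue was homogenised mechanically and kept on ice with cold buffers throughout.

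The promoters of 4 members are shown because their genes held the highest levels, the widest range or the matched elements named here. They are the RefSeq promoters on build GRCm39, cut to 250 bases before and 30 bases from the RefSeq start, each with 1 exact match on its chromosome, and written 5′ to 3′ on the strand of the gene. Capitals mark a TATA box in Fos and Junb, a CArG box, the element bound by SRF, in Zfp36, and a cyclic AMP response element, bound by CREB, in Dusp1. Fos lay at chr12:85520414-85520693 on the plus strand, and the others on the minus strand, Junb at chr8:85705348-85705627, Zfp36 at chr7:28078624-28078903 and Dusp1 at chr17:26727417-26727696.
Fos: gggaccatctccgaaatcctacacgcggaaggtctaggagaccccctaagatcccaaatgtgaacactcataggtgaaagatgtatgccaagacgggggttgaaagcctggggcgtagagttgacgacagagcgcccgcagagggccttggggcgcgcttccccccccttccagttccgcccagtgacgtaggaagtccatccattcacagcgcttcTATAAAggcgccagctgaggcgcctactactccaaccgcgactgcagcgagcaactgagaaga
Junb: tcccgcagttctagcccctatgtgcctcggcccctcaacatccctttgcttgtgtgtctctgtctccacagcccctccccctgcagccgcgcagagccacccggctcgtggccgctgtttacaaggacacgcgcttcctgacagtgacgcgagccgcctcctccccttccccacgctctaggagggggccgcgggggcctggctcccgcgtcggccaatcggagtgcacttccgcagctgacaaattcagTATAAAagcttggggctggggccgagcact
Zfp36: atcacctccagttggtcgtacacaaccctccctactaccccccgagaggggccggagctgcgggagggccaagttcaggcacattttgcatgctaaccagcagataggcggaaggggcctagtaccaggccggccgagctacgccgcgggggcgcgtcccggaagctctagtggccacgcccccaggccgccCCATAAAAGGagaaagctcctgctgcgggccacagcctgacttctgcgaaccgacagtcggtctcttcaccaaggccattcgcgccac
Dusp1: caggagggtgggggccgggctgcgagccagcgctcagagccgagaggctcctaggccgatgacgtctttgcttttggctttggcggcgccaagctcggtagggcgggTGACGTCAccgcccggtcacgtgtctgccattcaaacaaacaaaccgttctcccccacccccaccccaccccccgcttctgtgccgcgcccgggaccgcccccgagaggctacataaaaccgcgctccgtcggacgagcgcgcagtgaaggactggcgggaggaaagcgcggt
Windows of 250 bases before to 50 after the RefSeq start were searched on both strands for 7 of the members, without Egr1 and Ier2. A CArG box was matched in 1 of the 7, Zfp36, 58 bases upstream of the start, against 1.63% of 32851 promoters. The cyclic AMP response element TGACGTCA was matched in 1, Dusp1, 143 bases upstream, against 1.79% of promoters. The GC box GGGCGG was matched in 5, Fos, Jun, Atf3, Dusp1 and Zfp36, against 35.7% of promoters, and in Dusp1 it adjoined the cyclic AMP response element. TATAAA was matched 33 bases upstream of the start in Fos and at the start itself in Junb, against 13.6% of promoters. The AP-1 site TGANTCA was matched in 0 of 7, against 7.81% of promoters. Only exact matches within the windows were counted, so a member without a match may hold an element outside its window or with other letters. These matches describe the letters of the windows and no binding was measured.

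The libraries held 14223015 to 20239175 reads on genes. The 9 microglia markers Tmem119, P2ry12, Cx3cr1, Sall1, Siglech, Gpr34, Fcrls, Olfml3 and Csf1r were all in the table and together took 1.55% to 5.92% of the reads of a library. A set of 4 K/BxN ST libraries stood apart through 16 markers of neutrophils and monocytes, which took 2.19% of reads in WT K/BxN 1, 0.536% in WT K/BxN 2, 2.21% in TASTPM K/BxN 1 and 1.90% in TASTPM K/BxN 2, and at most 0.0172% in each of the other 10. The 95% Wilson intervals of these shares were narrow, for example 0.533% to 0.540% in WT K/BxN 2, and cover counting error only. Markers of dendritic cells were also higher in these 4, at 0.00589% to 0.0490% of reads against 0.000544% to 0.00357% in the others, and markers of border-associated macrophages took 0.00681% to 0.0174% against 0% to 0.00534%. Those 9 microglia markers took 1.55% to 3.76% of reads in these 4 libraries and 4.29% to 5.92% in the others, so that in TASTPM K/BxN 1 the neutrophil and monocyte markers exceeded them. Their depth, 15817451 to 18738784 reads, lay within that of the other libraries. The gate drawn in the study's supplement also required cells to lack Ly6C and CCR2, proteins of inflammatory monocytes, and a sort on that gate would remove such cells. Ly6c2 nevertheless had 12898 to 29133 normalized counts in these 4 libraries and 1.87 to 17.8 in the others, and Ccr2 had 8537 to 27035 and 3.13 to 86.0. The 4 are called marker-high libraries, and fold changes that involve K/BxN ST are followed by their values without them. Red cell markers reached 0.242% in WT Control 3. Only the numbers within TASTPM K/BxN ST are those of the labels, and the others follow the order of the deposited values. The study counts individual mice as replicates and gives as many mice as libraries per group, although the labels do not tie a library to a mouse. In bulk samples fewer cells of a type and less RNA per cell cannot be told apart.

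Per kilobase of exonic length, the most abundant members were Junb and Zfp36. Their mean levels over the 14 libraries were 1513 and 974 normalized counts per kilobase, which ranked 337 and 519 of 14268 genes with a length. Ier2, a nuclear regulator of transcription, followed with 499 and Jun with 470. Dusp1 had 225, Jund 222, Atf3 146, Fos 145 and Egr1, a zinc finger factor, 49.9 normalized counts per kilobase. Some neighbours in this order kept their place in most libraries and others did not. Junb was above Zfp36 in 14 of 14 libraries, Jund above Atf3 in 13, Zfp36 above Ier2 in 12, Jun above Dusp1 in 11 and Atf3 above Fos in 10, whereas Ier2 was above Jun in 4, Dusp1 above Jund in 3 and Fos above Egr1 in 6. The means of Ier2, Dusp1 and Fos were carried by few libraries, since their medians were 254, 107 and 14.5 normalized counts per kilobase.

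The members differed widely in their spread. The SD within groups, on the log2(normalized count + 1) scale, was 3.47 for Fos, 2.59 for Egr1, 1.34 for Dusp1 and 1.31 for Ier2. It was 0.83 for Atf3, 0.56 for Jun, 0.41 for Zfp36, 0.35 for Junb and 0.31 for Jund, with a median of 0.61 over all tested genes. Fos thus varied more between libraries of 1 group than 99.1% of tested genes, Atf3 more than 65.1% and Jund more than 10.3%. The spread of Fos and Egr1 includes libraries with at most 2 reads. That of Fos also includes the gap between marker-high and other K/BxN ST libraries.

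**Figure D1:**
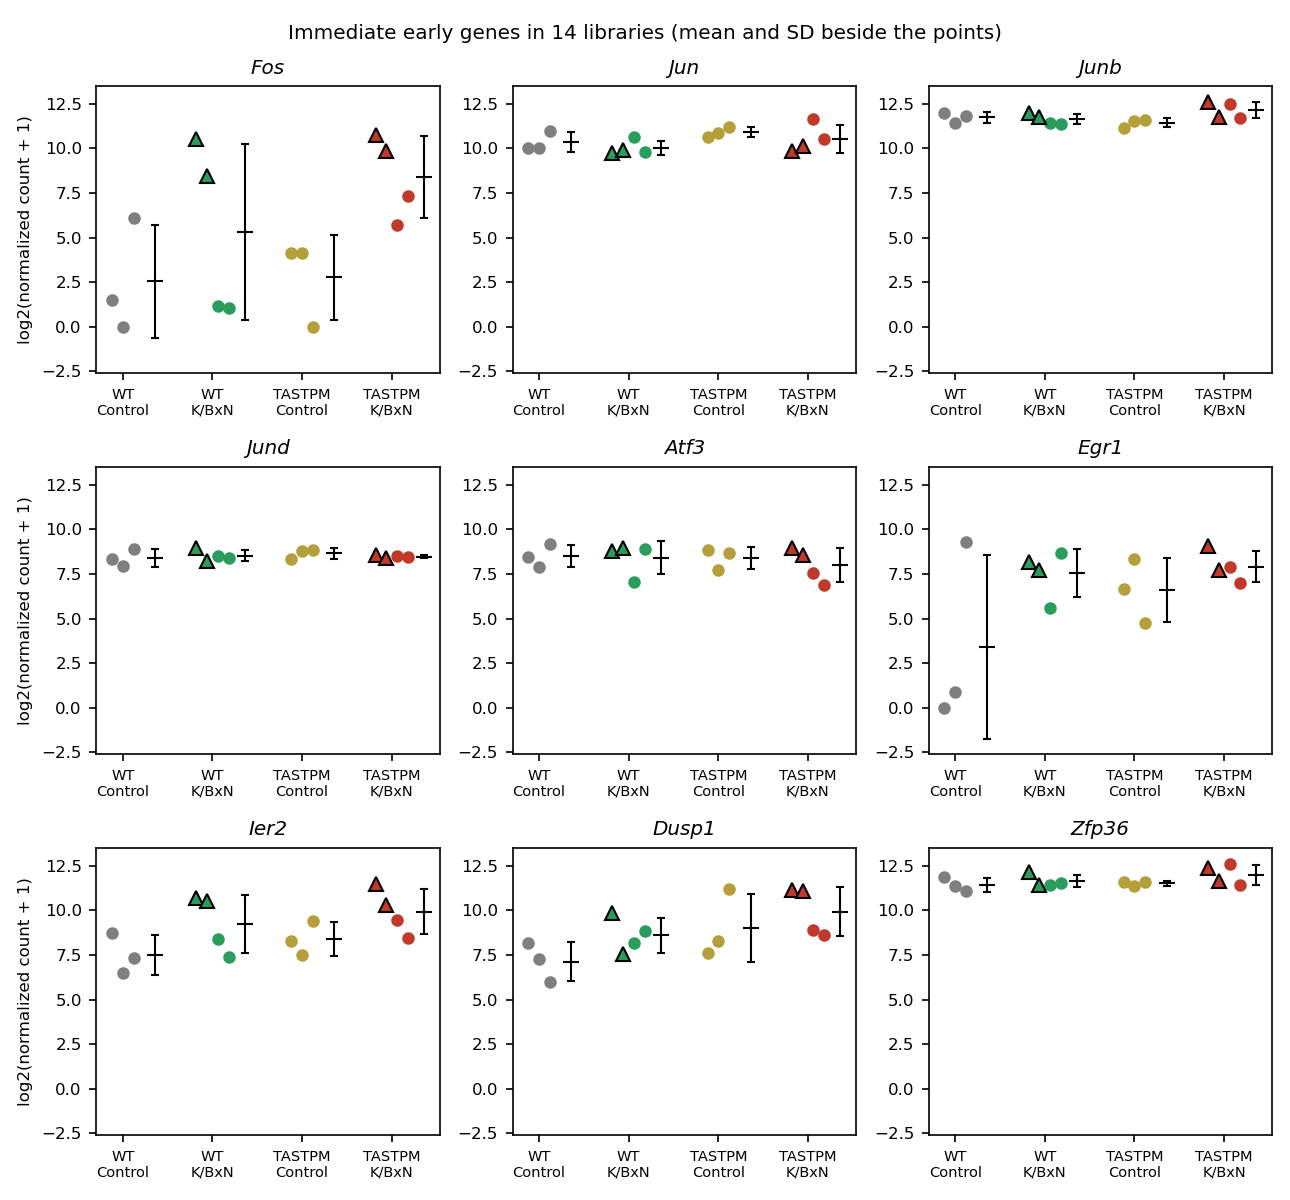
Level of each of the 9 genes on the y axis, as log2(normalized count + 1), in each library of the 4 groups on the x axis. Triangles are the 4 marker-high libraries, circles the other 10, and the bar beside each group is its mean with its SD. Fos and Ier2 are highest in the triangles, whereas Junb, Zfp36 and Jund stay within a narrow band.

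Fos, the subunit of AP-1 that cannot bind DNA without a partner, lies at chr12:85520658-85524047 and ranged from 0 to 1697 normalized counts. After K/BxN serum the WT libraries held 1498, 354, 1.19 and 1.09 normalized counts, and after control serum they held 1.87, 0 and 67.8. Both marker-high libraries lay above all WT controls and the other 2 lay within their range, so the groups overlapped. The group means were 464 ± 709 (SD, n = 4) and 23.2 ± 38.6 (SD, n = 3) normalized counts. This made a log2 fold change of 2.76 with a 95% interval from −2.08 to 7.61 (limma, adjusted p = 0.790), from 1.01 without WT K/BxN 1 to 4.54 without WT Control 3, and of −1.44 without the marker-high libraries, where both remaining K/BxN ST libraries held 1 read, so that this fitted value depends on the pseudocount. On the recovered reads edgeR gave 4.35 and DESeq2 4.33.

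In TASTPM, Fos reached 1697, 934, 51.7 and 161 normalized counts in K/BxN ST replicates 1 to 4, against 16.7, 16.7 and 0 after control serum. All 4 K/BxN ST libraries lay above all 3 controls, by the widest margin in the marker-high replicates 1 and 2. The means were 711 ± 766 (SD, n = 4) and 11.1 ± 9.63 (SD, n = 3). Fos had a log2 fold change of 5.65 with a 95% interval from 0.81 to 10.50 (limma, adjusted p = 0.964). By a two-sided exact permutation test p was 0.0571, where 0.0286 is the smallest that 4 against 3 libraries allow. With the marker-high libraries left out it was 3.77 (limma, adjusted p = 0.996). The 2 libraries with 0 reads were TASTPM Control 3 and WT Control 2, where 3 reads, the smallest number taken as detectable, would be 2.73 and 2.51 normalized counts.

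Junb, a partner of Fos with weaker activity than Jun, lies at chr8:85701113-85705359. Its exons overlap those of Prdx2 and Gm65321 on the other strand, and the counting was not stated to use strand, so reads from overlapping exons cannot be told apart. TASTPM replicates 1 to 4 held 6113, 3522, 5847 and 3347 normalized counts after K/BxN serum, and the TASTPM controls held 2251, 2965 and 3116. All 4 K/BxN ST libraries were above all 3 controls, and the highest were 1 marker-high library and 1 of the others. Junb had a log2 fold change of 0.72 with a 95% interval from 0.17 to 1.27 (limma, adjusted p = 0.964), and an exact permutation test, two-sided, gave p = 0.0857. It was 0.69 without the marker-high libraries (limma, adjusted p = 0.996). In WT it held 4038, 3417, 2801 and 2628 normalized counts after K/BxN serum and 4127, 2703 and 3569 after control serum, so the groups overlapped. There the log2 fold change was −0.11 with a 95% interval from −0.65 to 0.44 (limma, adjusted p = 0.929), or −0.33 without the marker-high libraries. The difference between the responses, which is the genotype by serum interaction, was 0.83 with a 95% interval from 0.05 to 1.60 and missed the threshold (limma, adjusted p = 0.999). It was 1.02 without the marker-high libraries.

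Jun, the DNA-binding partner that gives AP-1 most of its activity, lies at chr4:94937271-94940459 and overlaps the antisense RNA Junos. WT libraries held 856, 975, 1580 and 901 normalized counts after K/BxN serum, against 1045, 1033 and 2020 after control serum. TASTPM libraries held 924, 1138, 3205 and 1495 after K/BxN serum, against 1618, 1857 and 2338 after control serum. The groups overlapped in both genotypes, with 3 of the 4 marker-high libraries among the lowest 4. Log2 fold changes were −0.31 in WT with a 95% interval from −1.13 to 0.50, and −0.35 in TASTPM with a 95% interval from −1.17 to 0.46 (limma, adjusted p = 0.846 and 0.964). These became −0.12 and 0.19 without the marker-high libraries. With 1 library left out the value in TASTPM ran from −0.72 to −0.12.

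Jund, which is expressed steadily in most cells, lies at chr8:71151599-71153265 and overlaps Gm11175. TASTPM libraries held 370, 333, 362 and 353 normalized counts after K/BxN serum, against 318, 444 and 463 after control serum. WT libraries held 495, 299, 363 and 335, against 320, 246 and 478. The 4 groups overlapped. Its log2 fold change was 0.13 in WT with a 95% interval from −0.52 to 0.78, and −0.18 in TASTPM with a 95% interval from −0.84 to 0.47, and 0.06 and −0.17 without the marker-high libraries.

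Atf3, a stress-induced member of the ATF family that binds with Jun, lies at chr1:190902493-190950241. After K/BxN serum WT libraries held 439, 492, 130 and 483 normalized counts, and after control serum 348, 237 and 576. In TASTPM the values were 505, 380, 188 and 115 after K/BxN serum, and 459, 209 and 415 after control serum. The groups overlapped, and the TASTPM K/BxN ST libraries that were not marker-high held 2 of the lowest 3 values. Its log2 fold change was −0.08 in WT with a 95% interval from −1.33 to 1.16, and −0.42 in TASTPM with a 95% interval from −1.67 to 0.82 (limma, adjusted p = 0.979 and 0.966). Leaving out the marker-high libraries gave −0.53 in WT and −1.21 in TASTPM. With 1 library left out the value in TASTPM ran from −0.78 to −0.05.

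Egr1, a zinc finger factor that switches on later response genes, reached 287, 213, 47.8 and 401 normalized counts in WT after K/BxN serum. The WT controls held 0, 0.838 and 636. WT Control 3 thus held the highest value of all 14 libraries while the other 2 controls held 0 and 1 read. The difference was 4.14 on the log2 scale with a 95% interval from 0.54 to 7.74 (limma, adjusted p = 0.684), and the exact permutation p, two-sided, was 0.257. Leaving out WT Control 3 made it 7.10 and brought it past the threshold (limma, adjusted p = 0.0154, in a range of 0.0154 to 1.00 over the alternatives). The controls then left held 0 and 1 read, so the 7.10 depends on the pseudocount. Over all libraries a pseudocount of 10 gave 2.27. On the recovered reads, where means and not log values are compared, edgeR gave 0.17 and DESeq2 0.16, since the group means were 237 ± 148 (SD, n = 4) and 212 ± 367 (SD, n = 3). It was 3.73 without the marker-high libraries. TASTPM libraries held 531, 206, 237 and 127 normalized counts after K/BxN serum, against 98.2, 326 and 26.3 after control serum. Here too the groups overlapped, with a log2 fold change of 1.33 and a 95% interval from −2.27 to 4.93, or 0.86 without the marker-high libraries. It was 0.42 without TASTPM Control 3 and 2.21 without TASTPM Control 2.

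Ier2, at chr8:85387960-85389483, held 1667, 1476, 339 and 165 normalized counts in WT after K/BxN serum, against 421, 88.9 and 161 after control serum. TASTPM libraries held 2853, 1261, 700 and 354, against 310, 177 and 668. The 4 marker-high libraries, at 1261 to 2853, were above all others, at 88.9 to 700, and the remaining K/BxN ST libraries overlapped the controls. Ier2 had a log2 fold change of 1.74 in WT with a 95% interval from −0.09 to 3.56 (limma, adjusted p = 0.700). It was 1.55 in TASTPM with a 95% interval from −0.28 to 3.37 (limma, adjusted p = 0.964). These were 0.37 and 0.58 with the marker-high libraries left out.

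Dusp1, the phosphatase that switches off p38 and JNK, lies at chr17:26724564-26781102 and overlaps Ergic1. WT libraries held 916, 187, 287 and 455 normalized counts after K/BxN serum, against 282, 153 and 62.1 after control serum. TASTPM libraries held 2262, 2155, 470 and 399, against 191, 314 and 2336. The highest of all libraries was a control, TASTPM Control 3, and 3 of 4 WT K/BxN ST libraries lay above all WT controls. Dusp1 had a log2 fold change of 1.47 in WT with a 95% interval from −0.40 to 3.34 (limma, adjusted p = 0.741) and 0.91 in TASTPM with a 95% interval from −0.96 to 2.78. Leaving out the marker-high libraries made these 1.37 and −0.26. With 1 library left out the value in TASTPM ran from 0.19 without TASTPM Control 1 to 1.99 without TASTPM Control 3.

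Zfp36, at chr7:28076209-28079710 and overlapping Gm44710, was high in every library. WT libraries held 4591, 2737, 2763 and 3023 normalized counts after K/BxN serum, against 3762, 2607 and 2161 after control serum. TASTPM libraries held 5324, 3165, 6104 and 2765, against 3090, 2629 and 3054. In TASTPM 3 of 4 K/BxN ST libraries lay above all controls, and the highest, replicate 3, was not marker-high. Zfp36 had a log2 fold change of 0.21 in WT with a 95% interval from −0.41 to 0.83, and 0.49 in TASTPM with a 95% interval from −0.13 to 1.11 (limma, adjusted p = 0.870 and 0.964). The values were 0.06 and 0.49 without the marker-high libraries.

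Over all members, 0 of 9 were called between K/BxN ST and Control ST in WT or in TASTPM, at a limma adjusted p below 0.05 and an absolute log2 fold change above 1. The background was 0.00791% of 12645 tested genes in WT and 0.0% in TASTPM. At an unadjusted p below 0.05, limma had 1 member higher in WT, Egr1, where 4.77% of all tested genes were higher, and 2 in TASTPM, Fos and Junb, where 2.62% were higher. At that p 0 of 9 were lower, where 2.36% of tested genes in WT and 1.6% in TASTPM were lower, and 7.13% and 4.22% passed it in either direction. On the recovered reads edgeR and DESeq2 also called 0 members, where edgeR called 0.0% of tested genes in each genotype and DESeq2 1.0% in WT and 0.127% in TASTPM. At an unadjusted p below 0.05 edgeR had 1 higher in WT, Ier2, and 2 in TASTPM, Fos and Junb, against 4.18% and 2.7% of tested genes. By DESeq2 2 were higher in WT, Fos and Ier2, and 3 in TASTPM, Fos, Junb and Ier2, against 5.45% and 3.93%. Every TASTPM K/BxN ST library lay above every TASTPM Control ST library for 2 of 9 members, Fos and Junb, against 2.67% of all tested genes. In WT this held for 0 of 9, against 3.67%. The reverse, every K/BxN ST library below every control, held for 0 of 9 in WT, against 3.71%, and 0 of 9 in TASTPM, against 2.74%. The log2 fold change was positive for 6 of 9 members in each genotype, against 54.0% of tested genes in WT and 50.4% in TASTPM. Its median was 0.21 in WT and 0.72 in TASTPM, against 0.06 and 0.01 over all tested genes. Without the marker-high libraries 5 of 9 were positive in WT with a median of 0.059, against 0.040 over all tested genes, and 6 of 9 in TASTPM with a median of 0.49, against −0.0055.

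**Figure D2:**
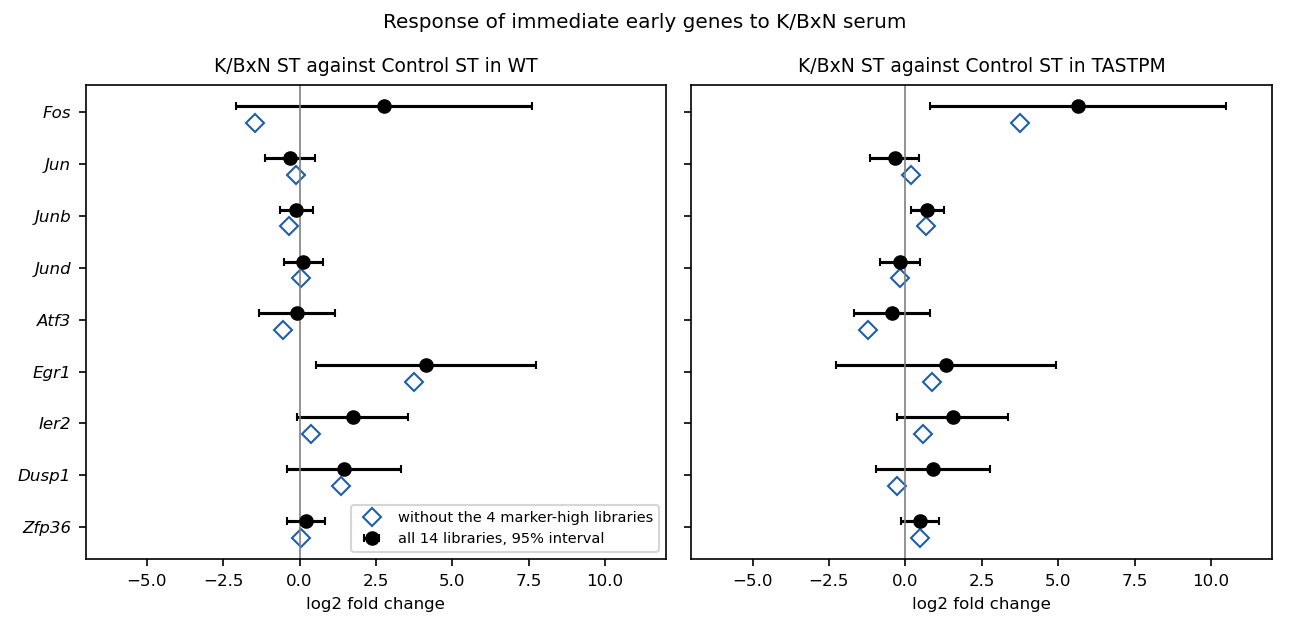
Log2 fold change of K/BxN ST over Control ST on the x axis for each gene, in WT on the left and in TASTPM on the right. Filled circles with 95% intervals are the limma fit to all 14 libraries and open diamonds the fit without the 4 marker-high libraries. Fos in WT moves from 2.76 to −1.44 between the fits, and Junb in TASTPM from 0.72 to 0.69.

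The response did not pass the threshold for a difference between the genotypes in any of the 9 genes (interaction in limma, background 0.0% called). Junb was the 1 member at an unadjusted p below 0.05, where 3.04% of tested genes were, 1.42% with a higher and 1.63% with a lower response in TASTPM. The interaction had a positive sign for 3 of 9 members, against 45.8% of tested genes. It was 2.89 for Fos with a 95% interval from −3.96 to 9.74 (1.11 without WT Control 3 and 4.64 without WT K/BxN 1), and −2.82 for Egr1 with a 95% interval from −7.91 to 2.27 (−5.78 without WT Control 3 and −1.12 without WT Control 1), and both intervals include large differences in either direction. Without the marker-high libraries these were 5.21 and −2.87, and the value for Fos again depends on the pseudocount.

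Between TASTPM and WT under Control ST, 0 of 9 members were called (limma, background 0.0%), and 0 were at an unadjusted p below 0.05, where 3.41% of tested genes were higher, 2.16% lower and 5.57% either. At that p 1 member, Dusp1, was higher with edgeR and with DESeq2, among 345 and 424 of the 12645 tested genes. It was also higher with the marker score as a covariate and without the marker-high libraries, among 555 and 425 of them. These fits use the same Control ST libraries. Groups did not overlap for 0 of 9, against 4.97% of tested genes higher and 4.71% lower in every TASTPM library, and 7 of 9 members were positive, against 53.2%. Dusp1 had the smallest p, with a log2 fold change of 1.89 and a 95% interval from −0.11 to 3.89 (limma, adjusted p = 0.883), and DESeq2 gave 2.50 (adjusted p = 0.521). It was 0.81 without TASTPM Control 3, which held 2336 normalized counts against 191 and 314 in the other TASTPM controls. Egr1 followed with 3.19 and a 95% interval from −0.66 to 7.04 (limma, adjusted p = 0.901), which became 6.15 without WT Control 3 and −0.50 with edgeR. The 6.15 rests on WT controls with 0 and 1 read and depends on the pseudocount. With a pseudocount of 10 the value over all libraries was 1.41. Under K/BxN ST 0 of 9 were called (limma, background 0.0%) and 1, Junb, was at an unadjusted p below 0.05, where 1.0% of tested genes were higher, 0.902% lower and 1.91% either. Again 0 of 9 had groups without overlap, against 1.16% higher and 0.672% lower, and 7 of 9 were positive, against 49.9%. Junb was higher in TASTPM by 0.51 on the log2 scale with a 95% interval from 0.01 to 1.02 (limma, adjusted p = 1.00). It was 0.71 without the marker-high libraries. Fos differed by 3.11 with a 95% interval from −1.38 to 7.597 (limma, adjusted p = 1.00), and by 0.60 with edgeR and 0.61 with DESeq2. With 1 library left out the limma value ran from 1.70 to 4.86. In the 2 libraries of each genotype that were not marker-high, Fos had 51.7 and 161 normalized counts in TASTPM and 1.19 and 1.09 in WT, where it rested on 1 read each. The fitted difference there was 5.43 and depends on the pseudocount in the same way.

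Fos and Ier2 were highest where neutrophil and monocyte markers were high. The 4 marker-high libraries held the highest 4 values of Fos, at 354 to 1697 normalized counts against 0 to 161 in the other 10. The same order held for Ier2, so that 2 of 9 members had all 4 above the other 10, against 7.63% of all tested genes, and 0 of 9 had all 4 below, against 2.51%. Dusp1 had 3 of the 4 among its highest 4, Junb, Atf3 and Zfp36 had 2, Egr1 and Jund had 1 and Jun had 0. With the marker score as a covariate, the log2 fold change of Fos was 0.09 in WT and 2.47 in TASTPM, that of Ier2 0.73 and 0.35, and that of Junb in TASTPM 0.55 (limma, adjusted p = 0.985). Under the same covariate Atf3 was −1.16 in TASTPM (limma, adjusted p = 0.985). The part of other cells in the levels of Fos and Ier2 was not tested.

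**Figure D3:**
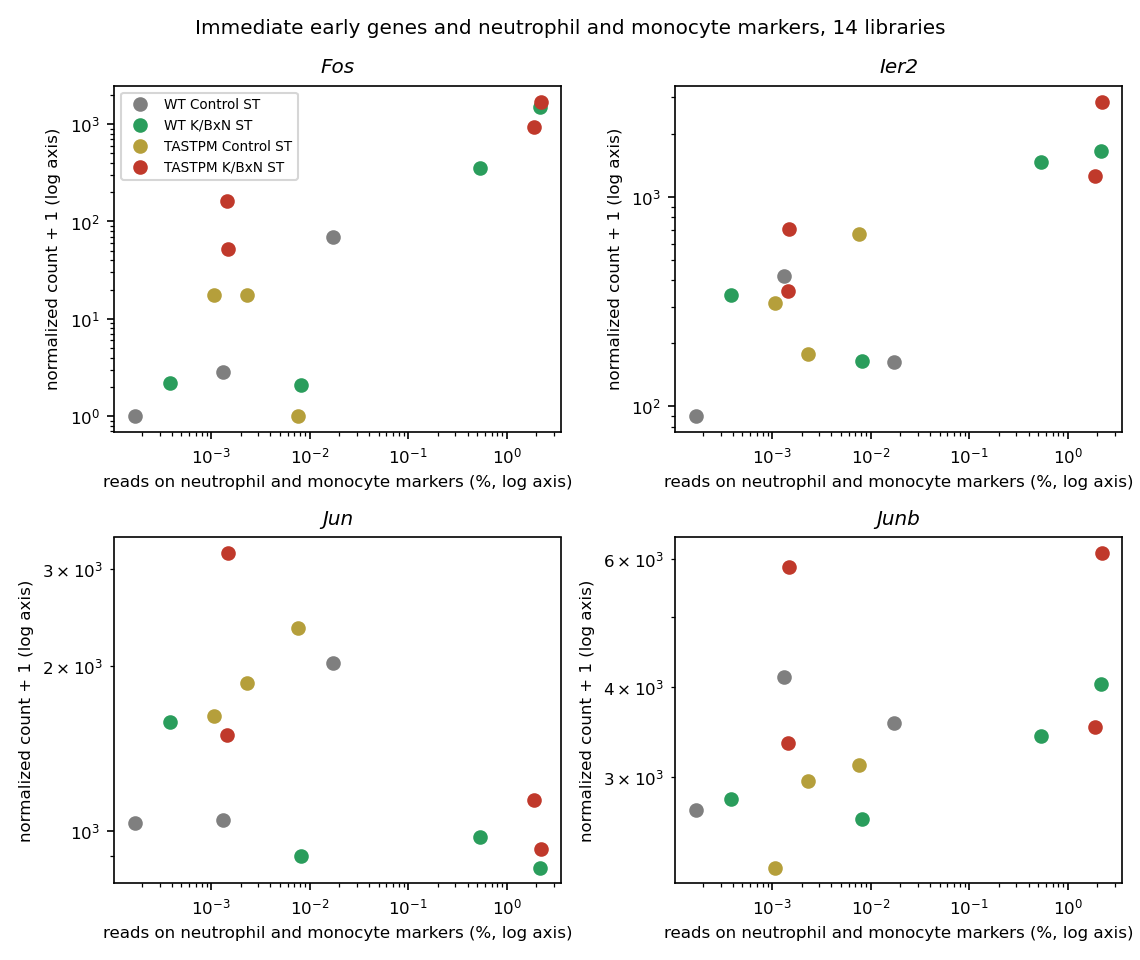
Normalized count + 1 on a log y axis against the percent of reads on 16 neutrophil and monocyte markers on a log x axis, for Fos, Ier2, Jun and Junb, with 1 point a library coloured by group. The 4 points on the right of each panel, at 0.536% to 2.21%, are the highest for Fos and Ier2, lie low for Jun and do not stand apart for Junb.

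The members did not vary as 1 block. Over the 14 libraries, which share preparation and differ in marker content, 9 of 36 pairs had a Pearson r above 0.5, 5 were below 0 and the median was 0.231. The closest pair was Junb and Zfp36, the abundant members, with r = 0.78 and a Spearman rho of 0.56. Fos and Ier2 had r = 0.73 and rho = 0.69, and Ier2 and Dusp1 had r = 0.67 and rho = 0.63. All 5 pairs below 0 included Jun, whose r ran from −0.35 with Atf3 and −0.26 with Fos to 0.36 with Jund. These correlations are a description and no p is given.

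The genes most like the members were ranked by Pearson r over the 14 libraries with the mean of the members' centred log2 values. Those values were not scaled, so members with a wide spread, such as Fos and Egr1, weigh most in the mean. That mean was highest in TASTPM K/BxN 1, at 1.64, and lowest in WT Control 2, at −1.86. The leading 10 genes were Hdgf, Uqcrc1, Mfsd14b, Lypla2, Batf, Tirap, Me2, Ccr1, Pltp and Ltv1, with r from 0.897 to 0.93. Batf is a leucine zipper partner of Jun proteins, Ccr1 a chemokine receptor of myeloid cells and Tirap an adaptor of Toll-like receptors. For 7 of the 10 the 4 marker-high libraries were the highest 4, as for 7.63% of all tested genes, and for Tirap, Ccr1 and Ltv1 3 of them were. Of the 10, 5 were also among the closest 10 by Spearman rho.

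Relatives and neighbours of the members in the pathway were followed in 6 lists with 79 genes, of which 71 were in the table and 66 were tested. By limma 0 of the 66 were called in WT or in TASTPM, against 0.00791% and 0.0% of all tested genes. At an unadjusted p below 0.05, 8 were higher and 1 lower in WT, against 4.77% and 2.36% of tested genes, and 4 higher and 1 lower in TASTPM, against 2.62% and 1.6%. DESeq2 called 2 in WT, Klf4 and Klf2, against 1.0% of tested genes, and 0 in TASTPM, against 0.127%, and edgeR called 0 in each. The median log2 fold change over the 66 was 0.02 in WT and −0.04 in TASTPM, against 0.06 and 0.01 over all tested genes, and −0.063 and 0.064 without the marker-high libraries. For the lists taken in turn, medians without those libraries were 0.0066 in WT and 0.24 in TASTPM for other primary response genes, and 0.037 and 0.066 for AP-1 relatives. They were −0.067 and −0.076 for feedback regulators, −0.056 and 0.15 for the MAP kinase cascade, 0.0074 and −0.41 for heat shock genes, and −0.81 and −1.42 for cytokine genes.

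Among other primary response genes, 8 of 13 were positive in each genotype, against 54.0% of tested genes in WT and 50.4% in TASTPM, with medians of 0.21 and 0.33. At an unadjusted p below 0.05, 4 were higher in WT and 2 in TASTPM, against 4.77% and 2.62% of tested genes. Klf4, a zinc finger factor induced with the immediate early genes, held 231, 112, 39.4 and 5.45 normalized counts in WT after K/BxN serum and 0 reads in all 3 WT controls. Its mean was at least 35.5-fold higher in K/BxN ST, set against 3 reads per control library, with a limma adjusted p of 0.179. DESeq2 gave an adjusted p of 5.87e-06, and over the alternatives it ranged from 1.31e-06 to 1.00. Without the marker-high libraries the mean was at least 8.22-fold higher. In TASTPM all 7 libraries had Klf4, at 39.5 to 338 normalized counts in K/BxN ST and 83.6 to 101 in Control ST. Srf, the factor that binds CArG boxes, held 279, 126, 485 and 165 normalized counts in TASTPM after K/BxN serum, against 30.3, 109 and 36.3 after control serum. All 4 K/BxN ST libraries were above the controls, and the log2 fold change was 2.20 (limma, adjusted p = 0.964), or 2.49 without the marker-high libraries. The lowest p among lower genes of the list belonged to Ier5 in WT, at −0.32, and Btg2 in TASTPM, at −0.24, neither at an unadjusted p below 0.05, and these were −0.26 and 0.066 without those libraries.

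Among AP-1 relatives, 4 of 8 were positive in WT and 3 of 8 in TASTPM, with medians of −0.09 and −0.12. Fosl2, a Fos relative without a strong activation domain, held 359.5, 90.3, 176 and 76.3 normalized counts in WT after K/BxN serum, against 14.1, 70.4 and 22.0 after control serum. Its 4 K/BxN ST libraries were all above the controls, and the log2 fold change was 2.32 (limma, adjusted p = 0.487), or 2.005 without the marker-high libraries. In TASTPM it was 1.03 with and 0.75 without them, and Atf4, the integrated stress factor, was −0.42 (limma, adjusted p = 0.964) with and −0.50 without them. Mafg in WT was −0.36 with and −0.11 without them.

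Feedback regulators had medians of 0.01 in WT and −0.21 in TASTPM, with 5 and 3 of 9 positive. Socs3, the inhibitor of STAT3 signaling, held 5708, 1611, 9531 and 620.5 normalized counts in TASTPM after K/BxN serum, against 669.6, 329.7 and 933 after control serum. In K/BxN ST, 3 libraries were above all controls, and the highest was not marker-high. Socs3 had a log2 fold change of 2.20 in TASTPM (limma, adjusted p = 0.964) and 0.72 in WT, or 2.04 and −0.067 without the marker-high libraries. Dusp6, the phosphatase of ERK, was −0.61 in TASTPM and −0.45 in WT, or −0.080 and −0.10 without them.

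The MAP kinase cascade and its factors had medians of 0.05 in WT and 0.13 in TASTPM, with 11 and 15 of 19 positive and values from −0.25 to 0.79 and from −1.27 to 1.37. Mapkapk2, the kinase downstream of p38, was 0.99 in TASTPM (limma, adjusted p = 0.964), with 5974, 3941, 2722 and 2740 normalized counts after K/BxN serum, against 1943, 1242 and 2533 after control serum. All 4 were above the controls, the marker-high libraries were highest, and without those the log2 fold change was 0.58. Mapk3, which encodes ERK1, was 0.49 in WT (limma, adjusted p = 0.668), Mapk9 was −0.25 in WT and Elk3 was −0.41 in TASTPM. The last 3 values were 0.48, −0.29 and −0.39 without the marker-high libraries.

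The last lists, of heat shock and cytokine genes, stand for genes that cell handling is known to induce. Of 10 heat shock genes tested, 7 were positive in WT with a median of 0.09 and 1 in TASTPM with a median of −0.30. Hsph1, a co-chaperone, was 0.87 in WT (limma, adjusted p = 0.686), Hspa8 was −0.13 in WT and 0.31 in TASTPM, and Hspa1b was −1.39 in TASTPM. Without the marker-high libraries Hsph1 was 0.71, Hspa8 −0.46 and 0.089, and Hspa1b −1.89. Of 7 cytokine genes that microglia induce ex vivo, 0 were positive in WT, with a median of −1.30, and 1 in TASTPM, with a median of −0.61. Nfkbid, an inhibitor-like partner of NF-kB, held 99.4, 97.4, 128 and 63.2 normalized counts in WT after K/BxN serum, against 349.6, 158 and 230.2 after control serum. All 4 K/BxN ST libraries were below the controls, and the log2 fold change was −1.30 (limma, adjusted p = 0.596), or −1.36 without the marker-high libraries. In TASTPM Il1b was 0.90, with 3122 and 952 normalized counts in the marker-high libraries against 182 and 24.8 in the other K/BxN ST libraries, and Il1a was −0.91. Without the marker-high libraries these were −1.42 and −0.10.

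**Figure D4:**
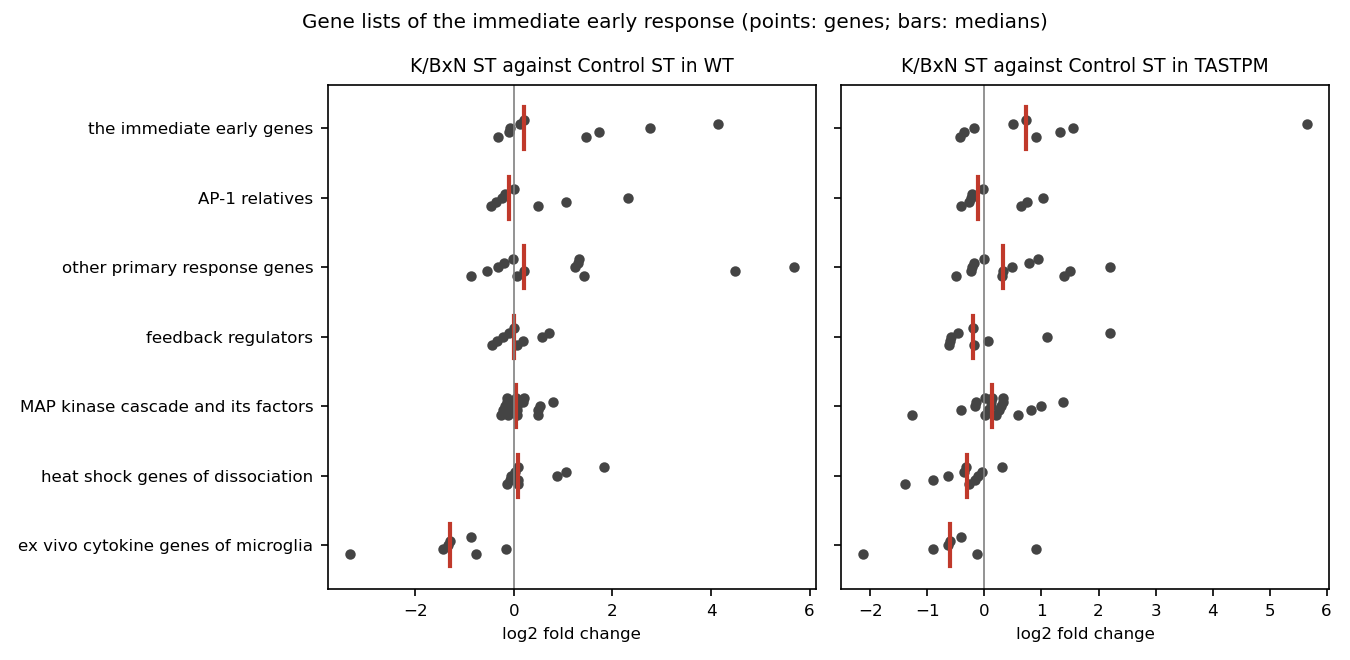
Log2 fold change of K/BxN ST over Control ST on the x axis, in WT on the left and in TASTPM on the right, for the 9 immediate early genes and 6 lists of related genes on the y axis. Points are genes and red bars medians. The medians of the immediate early genes are 0.21 and 0.72, those of the cytokine genes −1.30 and −0.61, and those of the kinase list 0.05 and 0.13.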

How the data were processed

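The authors sorted microglia, amplified cDNA with SMART-Seq v4, aligned reads to GRCm39 with HISAT2 2.1 and counted them per gene with featureCounts 1.5.2, without a statement on strand. The deposited values are a normalized signal, each gene's read count divided by 1 factor per library. Every value was a whole multiple of 1 read within a tolerance of 0.1 reads, so whole reads were recovered for 100% of values. The factors had a Pearson r of 0.999 with recomputed DESeq2 size factors. Of 14336 entries, 7 repeats were left out.

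The log2 of each normalized count plus 1 was analysed, which understates changes of low genes. Genes needed 10 reads or more in 7 libraries or more, and the 12645 that met this were fitted with limma 3.58.1 (trend, 1 mean per group, all 14 libraries) in R 4.3.3. Adjusted p values are Benjamini-Hochberg over these genes. A count test had been planned as an alternative, and on the recovered reads edgeR 4.0.16 called 0 genes in WT and DESeq2 1.42.0 called 127, or 275 without a filter. Single genes were also tested by two-sided exact permutation. Libraries were assigned by the group above their column, and 10 of 14 columns could not be joined to a numbered label. A marker-high library was a K/BxN ST library whose neutrophil and monocyte share exceeded that of every Control ST library. Gene positions, exon overlaps and exonic lengths are from GENCODE on GRCm39. The study counted on a different annotation release, from Ensembl, so overlaps and lengths of the counted genes may differ.

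The members and lists were chosen with earlier results of these data known. The text names all members, of each list the gene with the smallest p in each direction, and the 10 genes most like the members. A few further genes, Klf2 and the chaperones compared between genotypes, were named after their values were seen. A further marker gene of microglia is not reported here.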

Additional observations from a re-analysis of the deposited data

Results flagged for a closer look

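Atf3 in WT K/BxN ST had 1 library far from the other 3, with 130 normalized counts in the third library against 439, 483 and 492. The gap to the nearest library was 0.913 of the range of the group on the log2 scale, above Dixon's 95% critical value for 4 libraries. Of 18 groups of 4 examined it was the only one so placed, and chance gives about 1 in 20.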

How the results depend on the processing

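Of 693 values of the 9 genes under alternatives that kept all libraries, fitted 1 genotype or dropped the marker-high libraries, 668 kept their direction and side of the threshold and 25 changed sign. With edgeR, DESeq2 and DESeq2 without a filter, the interaction was 0.70, 0.72 and 0.72 for Egr1 and 0.13, 0.14 and 0.14 for Jun. The difference of TASTPM from WT under Control ST was −0.50, −0.50 and −0.50 for Egr1 and −1.07, −1.06 and −1.07 for Fos under the same tools, and Fos was −0.13 there with a pseudocount of 10. Atf3 in WT was 0.012 with edgeR. With the marker score as covariate, Fos was −0.056 between the genotypes under Control ST, Jun 0.020 in WT, 0.042 in TASTPM and 0.022 in the interaction, and Dusp1 −0.059 in TASTPM. Without the marker-high libraries, Fos was −1.44 in WT, Dusp1 −0.26 and Jun 0.19 in TASTPM, Jund 0.036 between the genotypes under K/BxN ST, and the interaction 0.31 for Jun and 0.21 for Ier2. For these reversals the cause was not tested.

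Leaving out each library in turn gave 630 values, of which 599 stayed, 30 changed sign and 1, Egr1 in WT, came past the threshold, at 2.45 to 7.10. In WT the ranges with a change of sign were −0.39 to 0.38 for Atf3, −0.51 to 0.0073 for Jun, −0.27 to 0.031 for Junb and −0.093 to 0.39 for Jund. In the interaction they were −0.80 to 0.039 for Atf3, −1.28 to 0.53 for Dusp1, −0.82 to 0.33 for Ier2 and −0.41 to 0.19 for Jun. Under Control ST they were −0.39 to 0.27 for Atf3, −1.05 to 2.001 for Fos and −0.10 to 0.30 for Zfp36. Under K/BxN ST they were −0.27 to 0.74 for Egr1 and −0.15 to 0.10 for Jund.

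Over all genes, limma called 1 in WT. The count was 0 with a pseudocount of 10, edgeR, the covariate, WT fitted alone or no marker-high libraries, 2 without a variance trend, 127 with DESeq2, 275 with DESeq2 without a filter, and 0 to 17 with 1 library left out (17 without WT Control 3, 14 without WT Control 2). DESeq2 called 16 in TASTPM, 12 for the interaction and 41 between the genotypes under Control ST, and 88, 36 and 84 without a filter, where limma called 0. Under Control ST the covariate and the fit without marker-high libraries each called 1. With 1 library left out these counts were 0 to 1, 0 to 3 and 0 to 11. Of the members, 0 to 1 were called in WT with 1 library left out. Of the related lists, DESeq2 called 2 in WT (4 without a filter, and 0 to 1 by limma with 1 library left out), 1 and 1 for the interaction and 2 and 2 under Control ST. Where limma was fitted with a group of 2 libraries or fewer, those were taken to vary like the rest.

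Library totals moved the median of all genes in WT from 0.06 to 0.11. No paired analysis was possible because the labels number the libraries R1 to R14 and no number is shared between groups. Fos had at most 2 reads in 5 libraries and Egr1 in 2, among them the deepest library, so their values there carry a large counting error.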

Other observations

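Heat shock genes, which encode chaperones, were compared between the genotypes under control serum, and limma called 0 of 10. In TASTPM Control ST against WT Control ST, 10 of 10 tested heat shock genes had a positive log2 fold change, against 53.2% of all tested genes, with a median of 0.71 against 0.04 over all tested genes, and 7 were higher at an unadjusted p below 0.05, where 3.41% of tested genes were. The smallest p was that of Hsph1, with 1053, 1064 and 1621 normalized counts in TASTPM Control ST and 133, 511 and 388 in WT Control ST. Its log2 fold change was 2.03 (limma, adjusted p = 0.383), and DESeq2 called it (adjusted p = 0.00821, in a range of 0.00431 to 0.717 over the alternatives). Hspa1b had 476, 394 and 2120 normalized counts against 152, 247 and 81.2, a log2 fold change of 2.33 (limma, adjusted p = 0.742). Under K/BxN ST, 9 of the 10 were positive, against 49.9% of tested genes, with a median of 0.39, and 2 were higher at an unadjusted p below 0.05, against 1.0%. Without the 4 marker-high libraries 10 of 10 were positive there, with a median of 0.42. The interaction of genotype and serum was positive for 1 of the 10, against 45.8% of tested genes, with a median of −0.28 against −0.05. At an unadjusted p below 0.05, 2 had a lower response in TASTPM by limma, Hsph1 and Hspa1b, against 1.63% of tested genes. By limma 0 were called. Without the marker-high libraries the interaction was positive for 2 of the 10, with a median of −0.41 against −0.065. No test was run on the list as a whole.

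Klf4, absent from the reads of all 3 WT Control ST libraries, had 83.6, 101 and 89.0 normalized counts in TASTPM Control ST, so the mean was 33.4-fold or more above the level of 3 reads in each WT library. It was not called by limma (adjusted p = 0.357) and was called by DESeq2 (adjusted p = 3.99e-05, in a range of 1.57e-05 to 0.661 over the alternatives).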
